A study of Mus musculus with 18 samples.

Results

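Chromosome duplication and chromosome segregation are carried out by 2 sets of genes that cycling cells switch on in turn, and 47 of them were examined here by symbol in a mouse expression table of 18909 genes. All 47 were found, and all 47 passed the filter on low values, a level of at least 10 scaled reads in at least 3 libraries. They comprised 16 S-phase genes (Mcm, Gins, polymerase and nucleotide genes), 13 mitotic genes and 18 others of the same machinery.

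The libraries came from 2 mouse tumour lines of C57BL6 origin, the E0771 mammary tumour line and the B16F10 melanoma line. E0771 cells carried MRTFA, MRTFB or the control in the pRetrox vector, and B16F10 cells carried MRTFA, MRTFB or the control in the same vector, giving 6 groups of 3 replicates. Every group, the controls included, was grown with doxycycline at 500 ng/mL for 48 hours, which turns the transgene on, so doxycycline itself does not differ between groups. Both proteins work with serum response factor on DNA and are kept in the cytoplasm while bound to monomeric actin. The labels do not say whether a line was a clone or a pool, or whether the replicates were separate cultures, so p-values measure the spread between these libraries, which may be technical.

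Before DNA is copied, Cdc6 and Cdt1 load the Mcm2 to Mcm7 helicase onto origins in G1. In S phase the helicase fires together with the GINS complex, and polymerases, the Pcna clamp and the nucleotide enzymes follow it. Their promoters are textbook targets of the E2F factors. Mitotic genes peak later, are switched on by the MuvB complex with B-Myb and FoxM1, and act on the spindle, on the spindle checkpoint and on anaphase.

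The libraries held between 27607055 and 37116655 counted reads, so counting error is small for genes at the levels described here. Mkl1, the older symbol of Mrtfa, had 12469, 16557 and 12160 scaled reads in E0771 MRTFA libraries, against 1124, 1514 and 1408 in E0771 control libraries (log2 difference 3.34 ± 0.19 SE, adjusted p = 4.68e-07). Mkl2, the older symbol of Mrtfb, averaged 2158 ± 87.9 in E0771 MRTFB libraries and 1344 ± 106 in E0771 control libraries (SD, n = 3 each; adjusted p = 0.0306). In B16F10, Mkl1 averaged 1205 ± 266 with MRTFA and 1015 ± 83.3 in control (adjusted p = 0.856), and Mkl2 averaged 1886 ± 128 with MRTFB and 1501 ± 330 in control (adjusted p = 0.503). The B16F10 libraries labelled MRTFA or MRTFB were therefore not separated from control by the transgene's own row, and the sources used here do not say whether the counting catches the transgene's sequence. Melanocyte markers, 7 of 7 in the table, summed to between 369 and 636 scaled reads in E0771 and between 561637 and 757748 in B16F10. Mammary epithelial markers, 4 of the 6 listed, summed to between 14982 and 17020 in E0771 MRTFA libraries and between 5816 and 7896 in E0771 control libraries, nearly all of it Krt8, and their part in the results below was not tested. They summed to at most 121 in B16F10. Fibroblast markers, 4 of 4 in the table, summed to between 2149 and 5567 in E0771 MRTFA libraries and between 2412 and 4557 in E0771 control libraries. In B16F10 control libraries these fibroblast markers summed to between 602 and 2118, and their part in the results was not tested either. Markers of immune cells were not analysed here.

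The promoters of both classes are shown first because the letters in them differ between S-phase and mitotic genes. RefSeq promoter windows of GRCm38.p6, from 250 bases before to 50 bases after the start, were matched by symbol for 39 of the 47 members. Those of Mcm4, Gins1, Gins2, Pole, Ccnd1, Ccne2, Ccna2 and Aurkb were not used here. The stretches below lie before the RefSeq start, are written 5′ to 3′ on the gene's strand, and carry the searched motifs in capitals on either strand. They belong to the S-phase genes Mcm7 (chr5:138171893-138172068, minus strand), Mcm6 (chr1:128359706-128359827, minus strand) and Rrm2 (chr12:24708192-24708220, plus strand), and to the mitotic genes Ccnb2 (chr9:70421559-70421733, minus strand), Top2a (chr11:99024195-99024428, minus strand) and Bub1b (chr2:118598011-118598114, plus strand).
Mcm7: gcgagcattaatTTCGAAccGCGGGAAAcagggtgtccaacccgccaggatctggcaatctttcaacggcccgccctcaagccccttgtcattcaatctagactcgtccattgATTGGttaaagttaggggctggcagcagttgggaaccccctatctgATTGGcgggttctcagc
Mcm6: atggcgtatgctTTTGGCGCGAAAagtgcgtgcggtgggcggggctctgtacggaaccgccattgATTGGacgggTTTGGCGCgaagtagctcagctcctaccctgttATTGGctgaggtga
Rrm2: ggtcagcggcgtCCAATgggaggcgaggc
Ccnb2: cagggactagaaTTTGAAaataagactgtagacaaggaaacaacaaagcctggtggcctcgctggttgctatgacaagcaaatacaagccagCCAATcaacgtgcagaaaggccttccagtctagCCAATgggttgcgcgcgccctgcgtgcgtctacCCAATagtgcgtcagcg
Top2a: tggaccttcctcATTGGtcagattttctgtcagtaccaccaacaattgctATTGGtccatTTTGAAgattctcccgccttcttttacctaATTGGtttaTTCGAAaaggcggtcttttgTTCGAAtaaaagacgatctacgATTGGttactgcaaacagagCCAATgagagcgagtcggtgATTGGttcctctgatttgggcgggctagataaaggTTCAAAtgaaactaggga
Bub1b: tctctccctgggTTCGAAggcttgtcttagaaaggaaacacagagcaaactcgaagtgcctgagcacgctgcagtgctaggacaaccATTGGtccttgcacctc

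The motifs searched on both strands were the E2F site (TTTCCCGC, TTTCGCGC, TTTGCCGC or TTTGGCGC), the cell cycle homology region or CHR, which binds MuvB (TTTGAA or TTCGAA), the CCAAT box, which binds NF-Y, and the CArG box of serum response factor. In the Mcm6 stretch 2 E2F matches overlap each other, and the block of 12 capitals is both of them. Top2a shows 4 CHR and 6 CCAAT matches in its stretch, and Mcm7 shows both an E2F and a CHR match. The Mcm7 stretch lies inside the gene's span in GENCODE M21 (chr5:138164583-138172422, minus strand), so its matches lie after the start in that annotation. The Rrm2 stretch shows a CCAAT box alone. An E2F match was present in 6 of 13 S-phase windows (46.2%) and in 1 of 12 mitotic windows (8.33%), that of Cdk1. Of all 32851 RefSeq windows 2.26% held one. A CHR match was present in 2 of 13 S-phase windows (15.4%), those of Mcm2 and Mcm7, and in 9 of 12 mitotic windows (75%), against 19.2% of all windows. The CCAAT box was in 76.9% of S-phase windows and 83.3% of mitotic windows, against 37.4% of all windows, so it did not separate the classes. A CArG box was in 1 member's window, that of Tyms, and in 1.63% of all windows. These matches describe letters in a window and are not evidence of binding.

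MRTFA in E0771 was set against the E0771 control to ask whether replication and mitosis genes move together when the coactivator is raised. In E0771 MRTFA libraries 35 of the 47 members fell and 1, Gins2, rose (limma, adjusted p under 0.05). Among all 13189 genes tested 18.1% were called lower, 20.3% were called higher and 38.4% were called in either direction. Over all genes 2677 were higher and 2387 lower, a split that became 2356 higher and 3282 lower when libraries were scaled to total reads, while the members were then 1 higher and 39 lower. The falls were moderate, between 0.55-fold and 0.79-fold of the control level, and they ran from replication licensing through to the mitotic chromosome. The median member lay at −0.45 on the log2 scale and 46 of 47 members lay below 0. Over all genes tested the median was −0.02 and 52.0% lay below 0. In bulk RNA, fewer cells in a phase of the cycle and less RNA per cell in that phase cannot be told apart. Without any single E0771 library the number of members called lay between 28 and 37, with the lowest counts without MRTFA replicate 1 (28) and MRTFA replicate 2 (29). Over all genes 3586 and 3260 were called without those 2 libraries, against 5064 with all libraries. In no setting was another member called higher in this comparison.

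**Figure D1:**
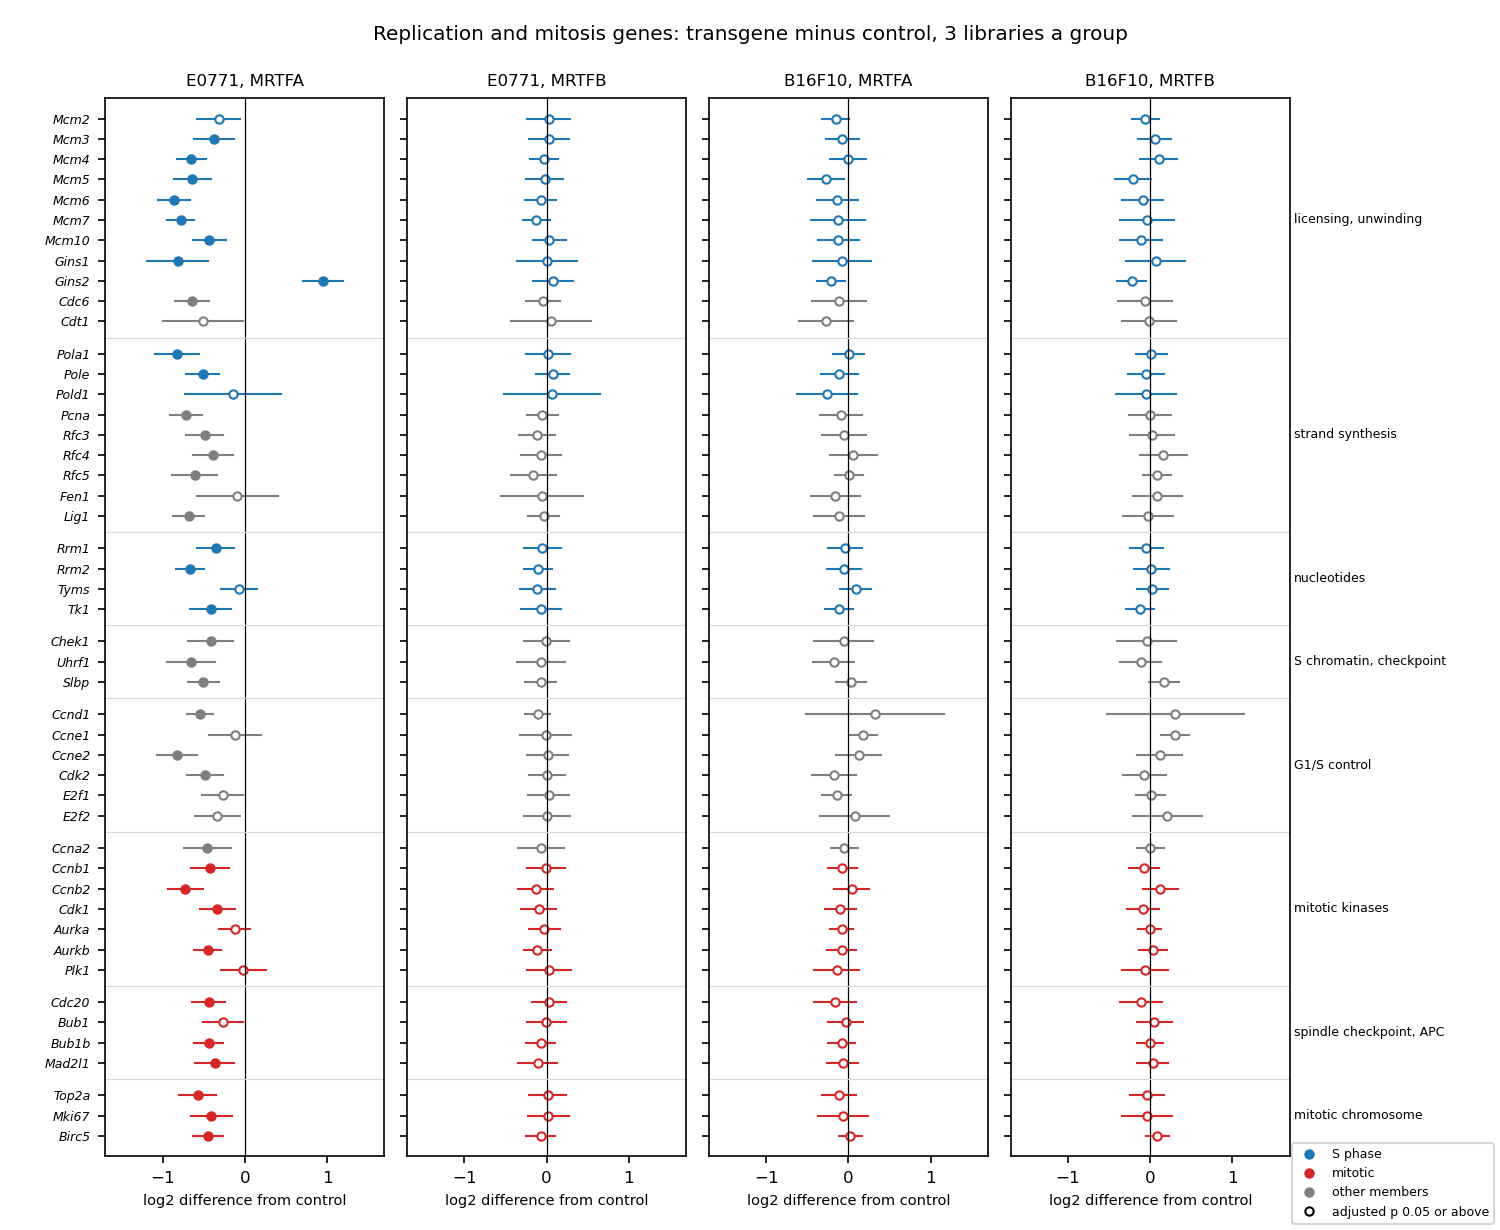
Log2 difference from the same line's control (horizontal axis) for each of the 47 members (rows, grouped by role), in 4 panels for MRTFA and MRTFB in E0771 and in B16F10. Points are limma estimates with 95% intervals, and filled points have an adjusted p under 0.05. Filled points occur in the first panel, where 35 lie left of 0 and Gins2 lies right of it.

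The licensing and unwinding genes had the lowest median of the 8 roles, −0.64, with 8 of 11 lower and 1 higher. Mcm6 (ENSMUSG00000026355.11, GRCm38 chr1:128331590-128359664), a helicase subunit, had 6904, 7262 and 8310 scaled reads in E0771 MRTFA libraries and 13415, 13034 and 14245 in E0771 control libraries. Each MRTFA library lay well below every control library, and the log2 difference was −0.86 ± 0.09 (SE; adjusted p = 2.45e-05). Mcm7 (chr5:138164583-138172422), another subunit of the same ring, had 5184, 5067 and 5117 in E0771 MRTFA libraries and 8625, 9234 and 8544 in E0771 control libraries. Its MRTFA replicates were nearly identical, and the difference was −0.78 ± 0.07 (adjusted p = 1.66e-05). The rest of the ring fell by smaller amounts, Mcm4 by 0.65, Mcm5 by 0.64 and Mcm3 by 0.38 on the log2 scale, while Mcm2 lay at −0.32 and did not pass (adjusted p = 0.0548). The helicase loader Cdc6 fell by 0.64, Gins1 by 0.82 and the replisome adaptor Mcm10 by 0.43. Cdt1, Cdc6's partner in loading, lay at −0.51 ± 0.22 (SE; adjusted p = 0.0903).

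Gins2 encodes another subunit of the GINS complex and was the single member that rose. It had 1531, 1720 and 1590 scaled reads in E0771 MRTFA libraries, against 745, 943 and 832 in E0771 control libraries. The groups did not overlap, and the difference was 0.95 ± 0.11 (SE; adjusted p = 7.6e-05), opposite in sign to its partner Gins1. Of the 4097 exon bases of Gins2 (chr8:120578633-120589304) 2758 lie opposite exons of Gse1, a gene on the other strand that averaged 1003 scaled reads in E0771 MRTFA libraries and 976 in E0771 control libraries. Whether the counting used strand is not given, so reads of Gins2 and of Gse1 cannot be told apart and the rise is uncertain.

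Of the strand synthesis genes 7 of 9 fell, with a median of −0.51. Pcna (chr2:132249162-132253314), the sliding clamp, had 4249, 4489 and 3797 scaled reads in E0771 MRTFA libraries and 6822, 7128 and 6580 in E0771 control libraries. All 3 MRTFA libraries lay lower (−0.71 ± 0.09 SE, adjusted p = 0.000106). Its processed pseudogene Pcna-ps2, which shares sequence with it, averaged 618 in E0771 MRTFA libraries and 1143 in E0771 control libraries, so the share of reads that belongs to each copy is uncertain. Lig1, the ligase that seals Okazaki fragments, had 3482, 3088 and 2876 in E0771 MRTFA libraries and 5109, 5170 and 4800 in E0771 control libraries (−0.68 ± 0.09 SE, adjusted p = 0.000137). Pola1, the catalytic subunit of the priming polymerase, had 2230, 2438 and 2944 in E0771 MRTFA libraries and 4044, 4186 and 5196 in E0771 control libraries. It showed the lowest value among the polymerases (−0.82 ± 0.12 SE, adjusted p = 0.000415), with replicate 3 the highest in both groups. Pole, of the leading strand, fell by 0.51, and the clamp loaders Rfc5, Rfc3 and Rfc4 fell by 0.61, 0.49 and 0.39. Pold1, of the lagging strand, lay at −0.14 ± 0.26 (SE; adjusted p = 0.702) and the flap nuclease Fen1 at −0.09 ± 0.22 (SE; adjusted p = 0.787). These 2 genes also had wide spreads, with a coefficient of variation of 32.6% for Pold1 and 28.5% for Fen1 in E0771 control libraries. The 95% interval of Pold1 ran from −0.73 to 0.44 and so included the value of Pcna, and that of Fen1 ran from −0.58 to 0.41. Of the 2422 exon bases of Fen1 1909 lie opposite the antisense gene Gm10143, so without strand their reads cannot be told apart and the Fen1 value is uncertain.

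**Figure D2:**
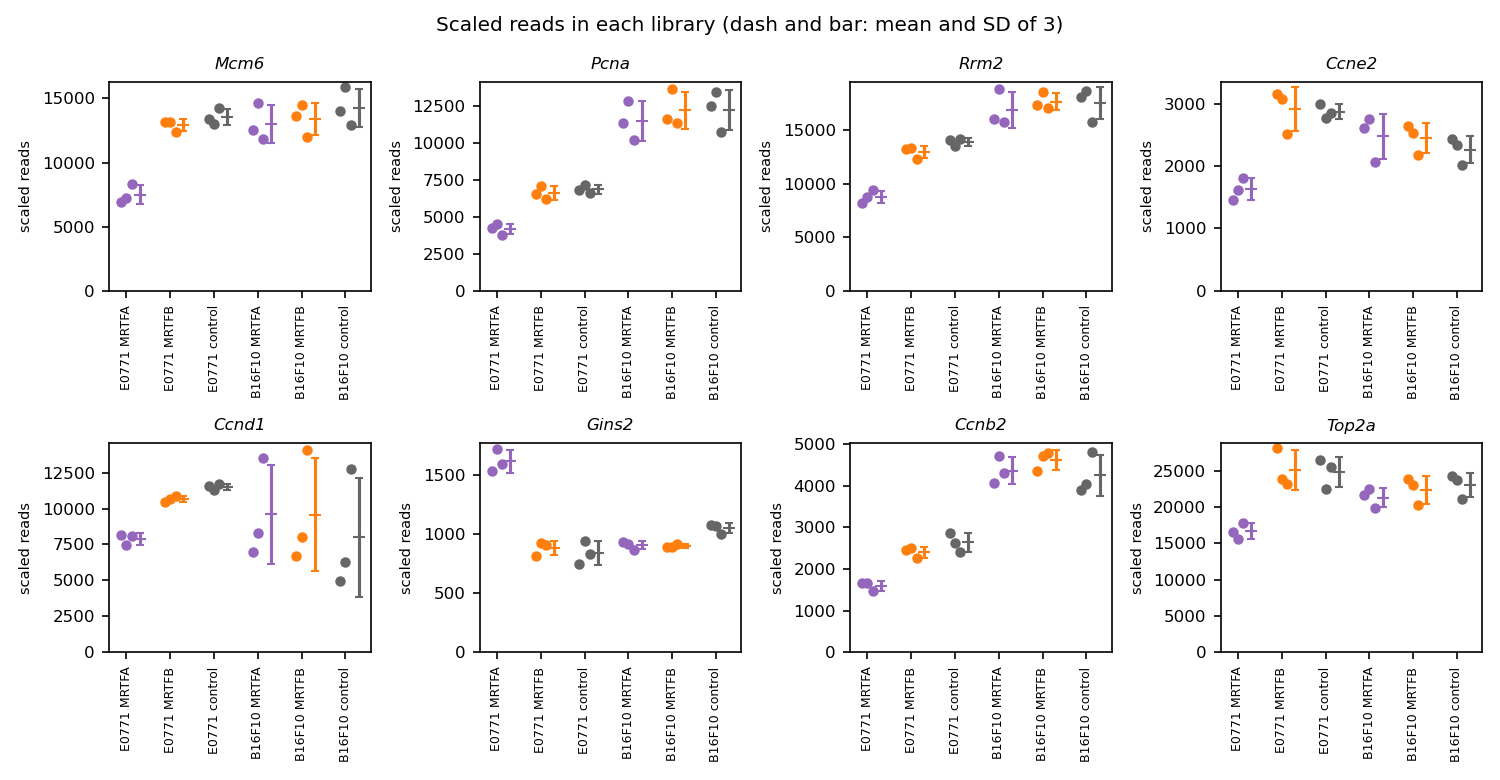
Scaled reads (vertical axes, starting at 0) in each library for 8 members, with the 3 replicates of a group side by side from replicate 1 at the left and the mean and SD beside them. In E0771 the MRTFA points lie apart from the MRTFB and control points in every panel, above them for Gins2 and below them for the other 7 genes. In B16F10 the Ccnd1 points of replicate 3 stand high in all 3 groups.

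Of the nucleotide genes 3 of 4 fell. Rrm2 (chr12:24708241-24714146), the regulated subunit of ribonucleotide reductase, had 8219, 8719 and 9369 scaled reads in E0771 MRTFA libraries and 14048, 13482 and 14138 in E0771 control libraries (−0.67 ± 0.08 SE, adjusted p = 7.52e-05). Tk1, the thymidine kinase of the salvage route, had 3168, 2928 and 3123 in E0771 MRTFA libraries and 3673, 4307 and 4350 in E0771 control libraries. That is a smaller separation (−0.42 ± 0.11 SE, adjusted p = 0.0131), and the call was lost without MRTFA replicate 2. Rrm1 fell by 0.35, and Tyms, which makes thymidylate, lay at −0.07 ± 0.10 (SE; adjusted p = 0.634), with groups that overlapped. Nucleotide supply thus held both one of the best separated members and one of the least changed.

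All 3 genes of S-phase chromatin and checkpoint fell. Slbp, which binds the stem-loop of histone mRNAs, had 1644, 1504 and 1620 scaled reads in E0771 MRTFA libraries and 2374, 2103 and 2281 in E0771 control libraries (−0.50 ± 0.08 SE, adjusted p = 0.000998). Uhrf1, which guides maintenance DNA methylation at forks, had 5831, 6081 and 5070 in E0771 MRTFA libraries and 7714, 10570 and 8544 in E0771 control libraries. The groups did not overlap although control replicate 2 stood high (−0.65 ± 0.13 SE, adjusted p = 0.00299). The checkpoint kinase Chek1 fell by 0.41, a call lost without any of the 3 MRTFA libraries or without control replicate 1.

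The G1 to S control genes divided, with 3 of 6 lower. Ccne2 (chr4:11191351-11204779), a cyclin that drives entry into S phase with Cdk2, had 1457, 1625 and 1810 scaled reads in E0771 MRTFA libraries and 3009, 2772 and 2862 in E0771 control libraries (−0.83 ± 0.11 SE, adjusted p = 0.00022). Ccnd1 (chr7:144929931-144939925), the cyclin that links growth signals to Cdk4 and Cdk6, had 8143, 7426 and 8115 in E0771 MRTFA libraries and 11546, 11300 and 11688 in E0771 control libraries. Replicates were tight in both groups and the difference was −0.55 ± 0.07 (SE; adjusted p = 0.000159). Of the 3495 exon bases of Ccne2 609 lie opposite exons of Ints8, which averaged 3167 in E0771 MRTFA and 2624 in E0771 control libraries. Of the 4709 exon bases of Ccnd1 1100 lie opposite exons of LTO1, which averaged 322 and 374. Reads of these shared bases cannot be told apart without strand. Cdk2 fell by 0.48. The sister cyclin Ccne1 lay at −0.11 ± 0.14 (SE; adjusted p = 0.559), and the activating factors E2f1 and E2f2 lay at −0.27 and −0.33 (adjusted p = 0.086 and 0.0585), all with overlapping groups.

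Among the mitotic cyclins and kinases 5 of 7 fell. Ccnb2 (chr9:70407692-70421547), a B-type cyclin, had 1659, 1672 and 1464 scaled reads in E0771 MRTFA libraries and 2876, 2624 and 2417 in E0771 control libraries. Its difference, −0.72 ± 0.09 (SE; adjusted p = 0.000183), was the lowest of the 13 mitotic genes. Aurkb, the kinase of the chromosomal passenger complex, had 2666, 2519 and 2554 in E0771 MRTFA libraries and 3561, 3719 and 3317 in E0771 control libraries (−0.45 ± 0.08 SE, adjusted p = 0.000948). Ccna2, Ccnb1 and Cdk1 fell by 0.45, 0.43 and 0.33, while the centrosome kinases Aurka (−0.12 ± 0.09 SE, adjusted p = 0.287) and Plk1 (−0.02 ± 0.12 SE, adjusted p = 0.919) did not pass and their groups overlapped. The interval of Plk1, −0.29 to 0.25, does not reach the value of Ccnb2.

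Spindle checkpoint and anaphase genes fell in 3 of 4 cases, and mitotic chromosome genes in 3 of 3. Bub1b, the checkpoint kinase homologue BubR1, had 3219, 3324 and 3333 scaled reads in E0771 MRTFA libraries and 4875, 4323 and 4215 in E0771 control libraries (−0.44 ± 0.08 SE, adjusted p = 0.0017). Cdc20, the activator of the anaphase-promoting complex, had 4564, 4616 and 3924 in E0771 MRTFA libraries and 6161, 6207 and 5390 in E0771 control libraries (−0.44 ± 0.09 SE, adjusted p = 0.00376). No MRTFA library reached a control library in either gene. Mad2l1 fell by 0.36 and Bub1 lay at −0.26 (adjusted p = 0.0787). Top2a (chr11:98992943-99024189), the topoisomerase that untangles sister chromatids, had 16625, 15586 and 17853 in E0771 MRTFA libraries and 26517, 22547 and 25527 in E0771 control libraries (−0.57 ± 0.10 SE, adjusted p = 0.0015). Birc5, or survivin, had 5292, 5375 and 5370 in E0771 MRTFA libraries and 8122, 7181 and 6709 in E0771 control libraries (−0.45 ± 0.08 SE, adjusted p = 0.0016). Mki67, which coats mitotic chromosomes and is read clinically as a proliferation marker, fell by 0.41.

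Comparing the classes, 12 of 16 S-phase genes were lower and 1 higher, with a median of −0.47, and 10 of 13 mitotic genes were lower, with a median of −0.43. The other 18 members had 13 lower and a median of −0.50. In the E0771 MRTFA libraries the S-phase median minus the mitotic median, each taken relative to the control mean, was −0.08, −0.20 and −0.07 for replicates 1, 2 and 3. The same quantity was −0.19, 0.01 and 0.15 in the control libraries, so the groups overlapped and the classes fell by amounts that the spread between libraries does not separate. On the fitted values the gap was −0.05. It was −0.15 without control replicate 1 or MRTFA replicate 3, 0.01 without MRTFA replicate 2 and 0.03 without control replicate 3, so its sign rests on single libraries. As summed scaled reads, the S-phase genes held 1.26 ± 0.04 times the mitotic total in E0771 MRTFA libraries and 1.36 ± 0.13 times in E0771 control libraries (SD, n = 3 each).

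**Figure D3:**
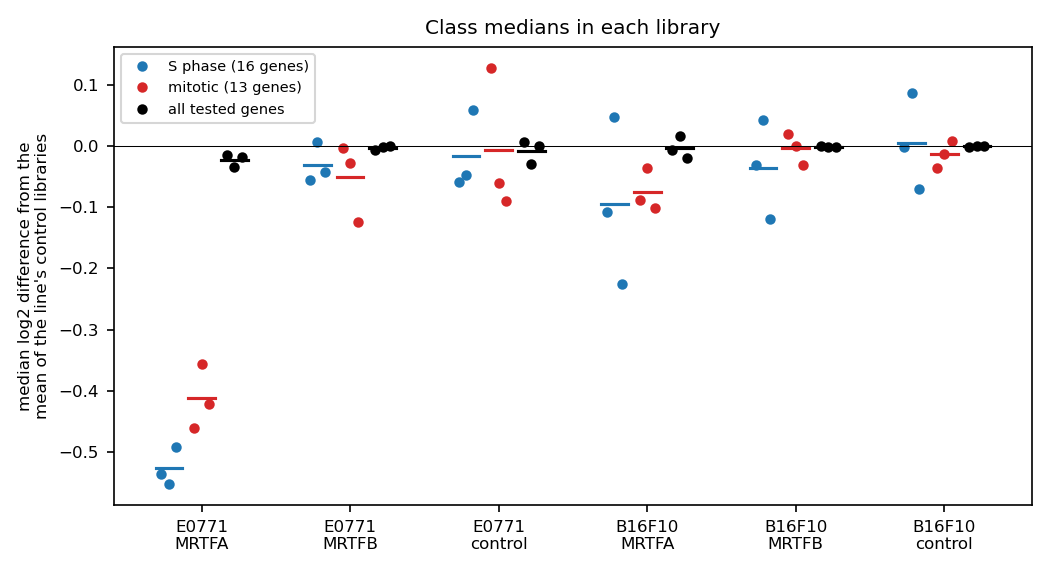
Median log2 difference from the mean of the line's control libraries (vertical axis) in each of the 18 libraries, for the 16 S-phase genes, the 13 mitotic genes and all genes tested. Points are libraries and dashes their means. The 3 E0771 MRTFA libraries sit between −0.55 and −0.49 for S-phase genes and between −0.46 and −0.36 for mitotic genes, below every other library.

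Set beside the motifs, the 14 members with an E2F match in their window had a median of −0.58 with 11 lower, and the 25 windowed members without one had a median of −0.41 with 17 lower. With a CHR match the 14 members had a median of −0.37 with 8 lower, against −0.45 with 20 of 25 lower without one. The 15 members with neither motif had a median of −0.42 with 12 lower. Falls were thus found in each of these groups, and no test was made of the differences among them.

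Other genes of the same machinery, listed apart from the members, were examined in the same fit. These lists too were chosen with earlier results of these data known, so they are not independent support for the fall of the members. Of 43 other replication genes 30 were lower and 2 higher, with a median of −0.43. The histone chaperone subunit Chaf1b (−0.79), the histone chaperone Nasp (−0.86), the dUTPase Dut (−0.95), the primase-associated subunit Pola2 (−0.65) and the clamp loader Rfc2 (−0.71) had the lowest adjusted p, between 2.91e-05 and 8.34e-05. The 2 that rose were Pold4, the small subunit of polymerase delta (1.21, adjusted p = 0.00043), and Ticrr, an origin firing factor (0.26, adjusted p = 0.0441), both named after their values were seen. Of 47 other mitosis genes 26 were lower and 5 higher, with a median of −0.33. The cytokinesis motors Kif23 (−0.67) and Kif20a (−0.53), the condensin subunit Ncapd2 (−0.61), Cdca3 (−0.67) and the spindle protein Hmmr (−0.57) fell with the lowest adjusted p. The 5 that rose, named after their values were seen, were Cdc25c, Mybl2, Cenpe, Cdc25b and Anln, at 0.63, 0.53, 0.49, 0.39 and 0.37.

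Inhibitors and pocket proteins did not share a direction. Of 19 tested, 5 were higher and 4 lower, with a median of −0.03. The pocket protein Rbl1 fell by 0.65 and the Cdk4 and Cdk6 inhibitor Cdkn2c fell by 0.82. The retinoblastoma gene Rb1 averaged 601 scaled reads in E0771 MRTFA libraries and 290 in E0771 control libraries (1.07 ± 0.23 SE, adjusted p = 0.00386). The antiproliferative gene Btg2 averaged 557 in E0771 MRTFA libraries and 163 in E0771 control libraries (1.84 ± 0.31 SE, adjusted p = 0.000983). The repressor E2f6 fell by 0.39. Cdkn1a, the p21 inhibitor, lay at −0.10 and was not called. Cdkn2a and Cdkn2b were not analysed here. Of 15 other G1 drivers 8 were lower and 1 higher, among them the E2F partner Tfdp1 (−0.58), Cdk4 (−0.34), Cks2 (−0.34) and the Cdk7 partner Ccnh (−0.50), while the Cdk subunit Cks1b rose by 0.36. In the other 3 comparisons of a transgene with its control, none of these 4 lists had a gene called. Few of all genes were called there either, 0.144% with MRTFB in E0771, 1.55% with MRTFA in B16F10 and 0.126% with MRTFB in B16F10.

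With MRTFB in E0771, which shares the control libraries with the comparison above, no member was called. None of 47 was called with limma, none had an unadjusted p under 0.05, and none was called with edgeR or DESeq2. Over all genes 0.144% were called, and 335 of 13189 had an unadjusted p under 0.05 in limma. Differences ran from −0.16 to 0.08 with a median of −0.03. Mcm6 had 13182, 13174 and 12393 scaled reads in E0771 MRTFB libraries, inside or just below the E0771 control values given above (−0.07, 95% interval −0.26 to 0.12). Ccnb2 had 2448, 2500 and 2254 in E0771 MRTFB libraries (−0.13, 95% interval −0.34 to 0.08). Ccnd1 had 10477, 10658 and 10880 in E0771 MRTFB libraries, all 3 under the lowest control library (−0.11, 95% interval −0.26 to 0.05, adjusted p = 1). Intervals of this width do not include the value each gene had with MRTFA. In E0771 Mkl2 lay 0.68 above control on the log2 scale with MRTFB, and Mkl1 lay 3.34 above control with MRTFA. The protein and the level of its transgene therefore cannot be told apart.

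MRTFB was also set directly against MRTFA in E0771, which shares the MRTFA libraries with the first comparison. The protein and the level of its transgene cannot be told apart in this comparison either. Here 34 of 47 members were higher with MRTFB and Gins2 was lower, where 14.5% of all genes were called higher and 19.1% lower. Scaled to total reads, 40 members were higher and 1 lower, and the split over all genes was 3006 higher and 2174 lower, against 1916 and 2514 as deposited. The S-phase median was 0.51 and the mitotic median 0.37, a gap of 0.15 that stayed between 0.11 and 0.19 when single libraries were left out. Relative to the control mean, the S-phase minus mitotic medians of the libraries, −0.05, 0.03 and 0.08 with MRTFB and −0.08, −0.20 and −0.07 with MRTFA, did not overlap, and no test was made of this gap. As summed scaled reads the groups did overlap. The S-phase total over the mitotic total was 1.24, 1.38 and 1.45 with MRTFB and 1.23, 1.25 and 1.31 with MRTFA. Top2a had 28225, 23888 and 23187 scaled reads in E0771 MRTFB libraries and the MRTFA values given above (0.59 ± 0.10 SE, adjusted p = 0.00155). Mcm2, which did not pass against control, passed here (0.35 ± 0.12 SE, adjusted p = 0.0442), but its call was lost with edgeR, without the filter on low values, and without any one of E0771 MRTFA replicates 1, 2 and 3, MRTFB replicates 2 and 3 and control replicate 3.

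In B16F10 with MRTFA, none of 47 members was called with limma, edgeR or DESeq2, and 1.55% of all genes were called. In limma 3 of 47 members and 1272 of all 13517 genes tested had an unadjusted p under 0.05. Of the members 36 of 47 lay below 0, where 52.7% of all genes did, and their median was −0.08 against −0.01 over all genes. The S-phase median was −0.11 and the mitotic median −0.08. By library the S-phase median was −0.11, 0.05 and −0.22 with MRTFA and 0.00, 0.09 and −0.07 in control, so replicate 2 was highest and replicate 3 lowest in both groups, and within each replicate number the MRTFA library was the lower. Mcm6 had 12535, 14656 and 11839 scaled reads in B16F10 MRTFA libraries and 14041, 15871 and 12933 in B16F10 control libraries. The groups overlap, and MRTFA was lower in each of the 3 same-numbered pairs (−0.14, 95% interval −0.38 to 0.11).

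Replicate numbers paired the libraries in B16F10, and with replicate number as a block 2 members were called with MRTFA, where 6.33% of all genes were called. Mcm5, a helicase subunit, had 8150, 7984 and 7409 in B16F10 MRTFA libraries and 9782, 10624 and 8135 in B16F10 control libraries, lower with MRTFA in each pair (−0.27; adjusted p = 0.0282 with the block and 0.378 without). Ccnd1 had 6957, 8309 and 13519 in B16F10 MRTFA libraries and 4987, 6268 and 12721 in B16F10 control libraries. It was higher with MRTFA in each pair (0.32; adjusted p = 0.0227 with the block and 0.935 without), while replicate 3 of each group held well above replicates 1 and 2. Without control replicate 3 the unblocked difference was 0.72, and without control replicate 1 it was 0.04, neither of them called.

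With MRTFB in B16F10, which shares those controls, none of 47 members was called with limma or edgeR, and 0.126% of all genes were called. In limma 2 of 47 members and 1199 of all 13517 genes tested had an unadjusted p under 0.05. The median was −0.0029. Ccne1 had 2464, 2602 and 2608 scaled reads in B16F10 MRTFB libraries and 2160, 1999 and 2078 in B16F10 control libraries, without overlap (0.30 ± 0.08 SE, adjusted p = 0.235). DESeq2 called it (adjusted p = 0.0195), and so did the fit with the replicate block (adjusted p = 0.0313). Ccnd1 had 6663, 8022 and 14050 in B16F10 MRTFB libraries, again above the control of the same number (0.31; adjusted p = 0.0391 with the block and 0.912 without). Without MRTFB replicate 3 the unblocked Ccnd1 difference turned to −0.0084, and without control replicate 3 it was 0.70, neither of them called. Ccne1 and Ccnd1 were the 2 members called with the block, where 4.46% of all genes were called. MRTFB against MRTFA in B16F10 had no member called with limma, edgeR or DESeq2, with 1.09% of all genes called. No member had an unadjusted p under 0.05 in limma there, and 586 of all 13517 genes tested did.

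Whether MRTFA acted differently on these genes in the 2 lines was tested as a difference of differences over all 18 libraries. In E0771 relative to B16F10, 18 of 47 members had a lower response and Gins2 a higher one, where 8.55% of all genes had a lower and 12.6% a higher response. By class, 7 of 16 S-phase genes and 5 of 13 mitotic genes were lower. The 6 with the lowest adjusted p were led in size by Gins2 (1.16 ± 0.13 SE, adjusted p = 6.85e-06), Ccne2 (−0.95 ± 0.17 SE, adjusted p = 0.000956) and Pola1 (−0.82 ± 0.15 SE, adjusted p = 0.00106). The other members of these 6 were Ccnb2 (−0.76 ± 0.13 SE, adjusted p = 0.000639), Mcm6 (−0.72 ± 0.14 SE, adjusted p = 0.00167) and Rrm2 (−0.61 ± 0.12 SE, adjusted p = 0.00153). In B16F10 itself, Ccne2 had 2611, 2766 and 2072 scaled reads in MRTFA libraries and 2440, 2350 and 2019 in control libraries. Pola1 had 2925, 3546 and 3097 in B16F10 MRTFA libraries and 3057, 3291 and 3186 in B16F10 control libraries. Rrm2 had 16077, 18818 and 15738 in B16F10 MRTFA libraries and 18081, 18644 and 15806 in B16F10 control libraries. In each of these 3 genes the B16F10 groups overlapped. Gins2 had 929, 916 and 866 in B16F10 MRTFA libraries and 1077, 1066 and 1003 in B16F10 control libraries, lower without overlap but not called (−0.22, adjusted p = 0.365). Ccnd1 pointed opposite ways in the 2 lines, yet its difference of −0.87 ± 0.42 (SE) did not pass (adjusted p = 0.162). The transgene's own row rose in E0771 and not measurably in B16F10, so the line and the level of the transgene cannot be told apart. For MRTFB the difference between lines had no member called with limma, edgeR or DESeq2, and 0.114% of all genes called. At an unadjusted p under 0.05 in limma it had 1 member and 811 of all 14859 genes tested.

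**Figure D4:**
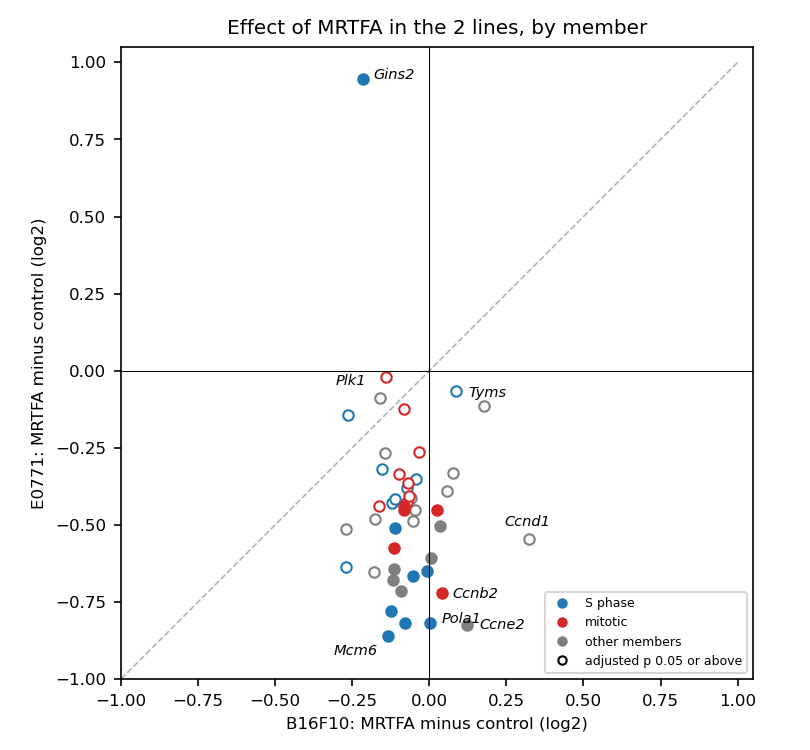
Log2 difference between MRTFA and control in E0771 (vertical axis) and in B16F10 (horizontal axis) for the 47 members. The dashed line marks equal values, and filled points have an adjusted p under 0.05 for the difference between lines. Most members lie under the dashed line, Ccne2, Pola1 and Ccnb2 far below it, and Gins2 lies far above it.

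The control libraries show how the 2 lines differ before any MRTF is added. In E0771 control relative to B16F10 control 10 of 47 members were higher and 18 lower, where 33.4% of all genes were higher and 36.8% lower. Of the 13 mitotic members 7 were lower and 1 higher in E0771, while the S-phase members split into 6 higher and 5 lower. The mitotic direction was not shared by the 47 other mitosis genes, of which 18 were higher and 16 lower. Of the 43 other replication genes 16 were higher and 12 lower. Mki67 had 4003, 3717 and 3909 scaled reads in E0771 control libraries and 14905, 15069 and 20152 in B16F10 control libraries, with a wide gap between the groups (−2.09 ± 0.13 SE, adjusted p = 1.91e-10). Mcm2 had 7626, 9788 and 9226 in E0771 control libraries and 19366, 21122 and 19078 in B16F10 control libraries (−1.17 ± 0.10 SE, adjusted p = 1.3e-08), while of its ring partners Mcm5 was higher in E0771 (0.40 ± 0.10 SE, adjusted p = 0.00224) and Mcm3, Mcm4, Mcm6 and Mcm7 did not pass. Pcna (−0.83), Tyms (−0.81), E2f1 (−0.74) and Ccnb2 (−0.69) were also lower in E0771, and Gins1 (0.61), E2f2 (0.60), Pola1 (0.49) and Ccna2 (0.46) were higher.

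Cdk2 had the widest difference between the lines, with 2008, 1770 and 1932 scaled reads in E0771 control libraries and 14622, 13944 and 14648 in B16F10 control libraries (−2.92 ± 0.11 SE, adjusted p = 2.41e-13). Cdk2 (chr10:128697939-128705031) lies back to back with Pmel, a melanocyte pigment gene, and 34 of its exon bases lie opposite exons of Pmel. Pmel averaged 28.3 scaled reads in E0771 control libraries and 118884 in B16F10 control libraries. Its part in the Cdk2 value was not tested, and reads of the shared bases cannot be told apart without strand.

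**Figure D5:**
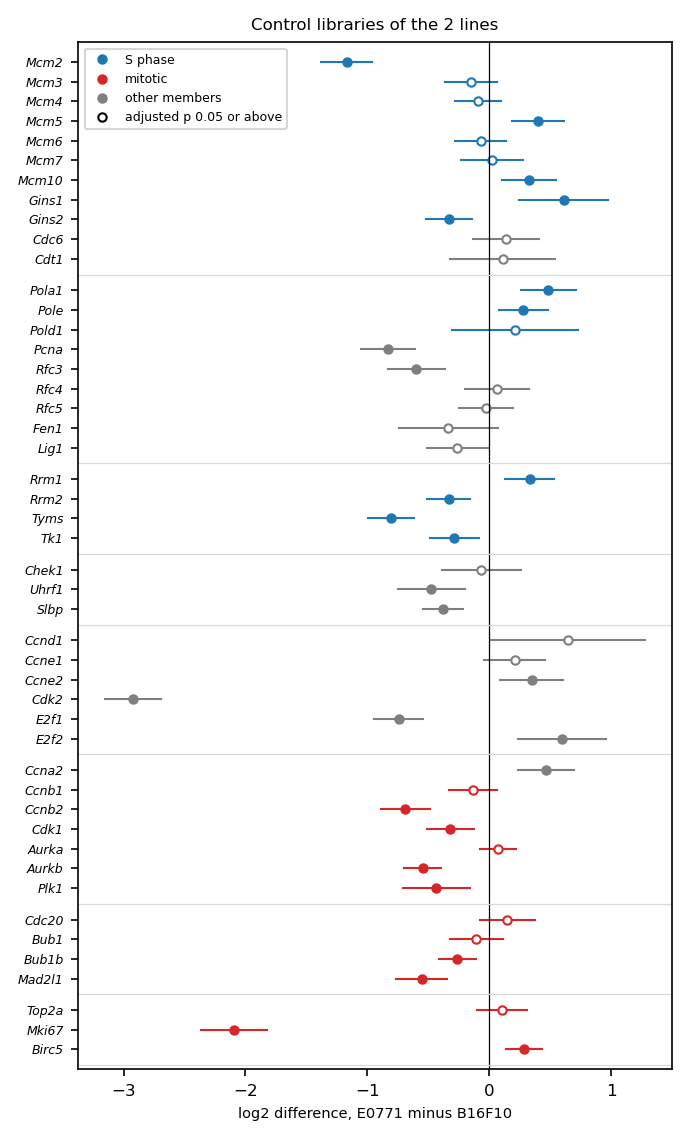
Log2 difference between E0771 control and B16F10 control libraries (horizontal axis) for each member (rows, by role), with 95% intervals. Filled points have an adjusted p under 0.05. Cdk2, Mki67 and Mcm2 lie farthest to the left, at −2.92, −2.09 and −1.17.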

How the data were processed

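The deposited table holds scaled reads (signal): per the submitters' processing notes, cutadapt 1.6, STAR 2.5.0a, HTSeq 0.5.3 and DESeq were used with build mm10, and the authors' column values are gene counts divided by a factor per library. In each library 100% of values were whole multiples, within 0.001 reads, of the value of 1 read, so whole reads were recovered for alternatives. The sources used here give neither strandedness nor the HTSeq mode. Exons of Ccna2, Ccnd1, Ccne2, Cdc20, Cdk2, Fen1, Gins2, Lig1, Mcm7, Rfc4, Rfc5 and Tk1 lie in part opposite exons of another protein-coding gene. Gene positions come from GENCODE M21 (GRCm38), promoters from RefSeq.

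Tests used limma 3.58.1 with a trend on log2(value + 1), in R 4.3.3, for genes with at least 10 scaled reads in at least 3 fitted libraries, with Benjamini-Hochberg adjustment over all of them and a threshold of 0.05. Fold changes are on that scale. Each line's 9 libraries were fitted together, and all 18 for comparisons of lines. Errors are SE of the fit or SD over 3 libraries. Alternatives were other pseudocounts, filters and scalings, edgeR 4.0.16 and DESeq2 1.42.0 on the recovered reads, a replicate block, and each library left out. The fit was tested on simulated data.

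Deviations of same-numbered libraries correlated between 0.353 and 0.567 for MRTFA in B16F10, 0.382 and 0.486 for MRTFB in B16F10, 0.459 and 0.553 for MRTFB in E0771, and between 0.134 and 0.634 for MRTFB against MRTFA in the 2 lines, so these were read as paired from the data. For MRTFA in E0771 they were 0.0842 for replicate 1, 0.461 for replicate 2 and 0.525 for replicate 3. That comparison was not read as paired because of replicate 1, although its libraries also enter comparisons that were. The main fit used no block in any comparison, and the block is given among the alternatives.

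The members, their classes, the other gene lists and the motifs were chosen with earlier results of these data known, among them that a cell cycle list was lower with MRTFA in E0771. Members given in every library are the 2 of each role with the lowest adjusted p for MRTFA in E0771, those called for a transgene elsewhere, and up to 6 with the lowest adjusted p for a transgene's difference between lines. From the other lists up to 5 genes with the lowest adjusted p are named, and any further one was chosen after its value was seen. Promoters shown are those of up to 3 S-phase and 3 mitotic genes among these.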

Additional observations from a re-analysis of the deposited data

Results flagged for a closer look

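The response to MRTFA differed between the lines, by the test of the difference itself, in 19 of 47 members (limma over 18 libraries, adjusted p under 0.05). Over all genes 3138 of 14859 were called in the same test. The line and the level of the transgene cannot be told apart here, and the Gins2 value is uncertain because most of its exon bases lie opposite Gse1. Values are the response in E0771 minus that in B16F10 on the log2 scale. Among genes that act at origins and forks, Gins2 lay at 1.16, and Pola1 at −0.82, Gins1 at −0.74, Mcm6 at −0.72, Mcm7 at −0.66, Mcm4 at −0.64, Pcna at −0.62, Rfc5 at −0.62, Lig1 at −0.56, Cdc6 at −0.53 and Pole at −0.40. Among genes of nucleotide supply, histone mRNA and entry into S phase, Rrm2 lay at −0.61, Slbp at −0.54 and Ccne2 at −0.95. Among mitotic genes, Ccnb2 lay at −0.76, Birc5 at −0.48, Top2a at −0.46, Aurkb at −0.37 and Bub1b at −0.36. The highest adjusted p, that of Cdc6, was 0.0497. The calls of Gins1, Cdc6, Pole, Lig1, Bub1b and Top2a were lost in at least 1 alternative, and the other 13 were kept in all that were run. Dixon's test for an outlying library was not run on groups of 3.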

How the results depend on the processing

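With MRTFA in E0771, 27 of the 36 calls were kept in every alternative, and 9 (Mcm3, Rfc4, Rrm1, Tk1, Chek1, Ccna2, Cdk1, Mad2l1 and Mki67) were lost when a library was left out. The number called ran from 28 to 37 over the libraries left out and from 36 to 41 in the other alternatives. Over all genes it ran from 3260 to 5103 and from 4544 to 6843. The S-phase minus mitotic median ran from −0.15 to 0.028 there, against −0.05, and lay at −0.09 without members that overlap a gene on the other strand, an alternative chosen after seeing the data. With MRTFB in E0771 it ran from −0.080 to 0.080. In B16F10 the replicate block, where numbers paired the libraries, called 2 members with MRTFA and 2 with MRTFB, as did the block with upper-quartile scaling, chosen after seeing the data (2 and 2), and DESeq2 called 1 with MRTFB. Over all genes the block called 855 with MRTFA, against 209, and 603 with MRTFB, against 17, while DESeq2 called 357 and 179. With MRTFB in E0771 the block called 33 genes and DESeq2 51, against 19, and no member. It changed no other call in the paired comparisons with a control. In E0771 it called 38 members for MRTFB against MRTFA, against 35, and the count over all genes with the block is not given here. For MRTFA in E0771, not read as paired because of replicate 1, the block called 40 members, against 36. Over all genes it called 6405 there, against 5064. The MRTFA difference between lines counted 14 to 21 members over the libraries left out and 30 with the block and upper-quartile scaling, against 19. Counts over all genes in these alternatives are not given here, so the changes are not read as particular to the members. Ccnd1 with MRTFB in B16F10 lay at 0.31 and turned to −0.0084 without MRTFB replicate 3, with 0.70 the highest value over libraries left out. Where no cause is given, the cause was not tested.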

Other observations

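Per kilobase of exon, the levels of the members spanned a wide range. In E0771 control libraries the highest were Rrm2 at 5012 scaled reads per kilobase, Ccna2 at 4037 and Mcm3 at 3331, and the lowest were Fen1 at 145 and Gins2 at 205. Most exon bases of Fen1 and of Gins2 lie opposite another gene, so their levels and places in this order are uncertain. Of the 4083 exon bases of Ccna2 510 lie opposite exons of Exosc9, which averaged 4677 in E0771 control libraries, so the level of Ccna2 carries the same limit. In B16F10 control libraries Rrm2 (6319) was again highest, with Pcna (5091) next and E2f2 (159) lowest. The median coefficient of variation over the members was 6.80% in E0771 MRTFA, 7.15% in E0771 MRTFB and 9.58% in E0771 control libraries. It was 10.0% in B16F10 MRTFA, 8.24% in B16F10 MRTFB and 6.83% in B16F10 control libraries. The widest was Pold1 in each E0771 group and Ccnd1 in each B16F10 group, where it reached 51.9% in control.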
